A study of Mus musculus with 4 samples.

Results

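The genes described here encode the proteases, the histamine-forming enzyme and the proteoglycan core of mast cell granules. They were the 10 symbols Cpa3, Mcpt1, Mcpt2, Mcpt4, Mcpt8, Cma1, Tpsab1, Tpsb2, Hdc and Srgn. These were chosen by name, but with earlier results of these data known, and all 10 were found among the 55401 genes of the table. RNA was sequenced from cultured cells that the labels give as female germline stem cells from the ovary of C57BL/6 mice, grown with leukemia inhibitory factor and other growth factors. The groups were 2 libraries treated with DMSO, the solvent, and 2 treated with daidzein, a soy isoflavone. The labels name no genotype beyond the strain, no age, and no dose or duration of daidzein. They also do not say whether replicates were separate cultures, so each p-value reflects the spread between these libraries alone, and that spread may be technical.

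Library totals ran from 16230400 to 18537134 reads. The labelled cell type was checked against markers. Among germ cell genes, Pou5f1 and Dppa3 had no read in any library, and Ddx4 and Dazl had at most 2 and 1 per library. Gdf9 had 11 and 2 reads with DMSO and 11 and 3 with daidzein. Of the 10 listed germ cell genes, 8 had at most 3 reads in every library. Of the mast cell markers other than Cpa3 and Hdc, Kit, the receptor for stem cell factor, had 10574 to 12205 reads per library. Ms4a2, the beta chain of the IgE receptor, had 49 to 79, and Fcer1a, its IgE-binding alpha chain, had 0 in every library. Itgb7, Fcer1g and Il1rl1, also listed as mast cell surface genes, had 2419 to 2916, 457 to 509 and 2561 to 3049 reads per library. Of the 14 listed mast cell surface genes, 9 had at least 10 reads in every library and 4 had at most 3. Of the macrophage markers, Adgre1 had 2006 to 2339 reads per library, while Csf1r had at most 2, Mrc1 had 1 to 4 and C1qa had 0. Cd68 had 44 to 68 and Lyz2 had 15 to 31. Of the 8 listed macrophage genes, 3 had at least 10 reads in every library and 4 had at most 3. The markers therefore went against the labelled cell type. The mast cell and macrophage sets were each present only in part, the macrophage set with Adgre1 as its only abundant gene.

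Mast cells store proteases in secretory granules, bound to the sulfated sugar chains of serglycin, the product of Srgn. The stored enzymes are carboxypeptidase A3 (Cpa3), chymases, which cut after aromatic residues, and tryptases, which cut after basic ones. Histamine is made from histidine by histidine decarboxylase (Hdc). In the mouse, Mcpt4, Cma1 and the tryptases are typical of connective tissue mast cells and Mcpt1 and Mcpt2 of mucosal mast cells, while Mcpt8 is typical of basophils. Cpa3 is also known from mast cell progenitors and basophils.

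Only Cpa3 and Srgn were abundant, and the other 8 genes were at or close to 0 in every library. A gene was taken as detected with at least 10 reads in every library, and as at the floor with at most 3 reads in every library. By these limits 2 of the 10 genes were detected, 5 were at the floor, of which 4 had 0 reads in all 4 libraries, and 3 lay in between. For comparison, 46% of 21897 protein-coding genes were detected and 47.1% were at the floor. None of the 7 serine proteases (chymases, tryptases and Mcpt8) was detected, and these had 55 reads in all libraries together against 50457 for Cpa3.

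The stretches of 250 bases before the transcription start of Cpa3 and Srgn, the abundant genes, are shown with those of the chymase genes Mcpt1 and Mcpt4, which had 0 reads, and Cma1, which had at most 3 per library. They are from RefSeq on GRCm38.p6, which held 7 of the 10 genes, and were shown where the RefSeq start lay within 10 bases of the deposited gene end. Capitals mark AGATAA and TGATAA, which hold the core bound by GATA factors, and CAGCTG, an E-box, searched on both strands.
Cpa3, chr3:20242182-20242431, minus strand: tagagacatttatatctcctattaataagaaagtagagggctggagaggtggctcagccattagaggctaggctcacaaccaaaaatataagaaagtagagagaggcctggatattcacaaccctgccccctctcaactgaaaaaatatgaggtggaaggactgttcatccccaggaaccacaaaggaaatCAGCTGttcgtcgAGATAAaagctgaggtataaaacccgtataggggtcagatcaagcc
Srgn, chr10:62527446-62527695, minus strand: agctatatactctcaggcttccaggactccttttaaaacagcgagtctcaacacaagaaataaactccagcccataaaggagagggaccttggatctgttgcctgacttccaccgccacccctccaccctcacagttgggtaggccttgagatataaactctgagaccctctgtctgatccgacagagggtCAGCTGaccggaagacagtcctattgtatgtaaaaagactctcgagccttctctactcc
Mcpt1, chr14:56017714-56017963, plus strand: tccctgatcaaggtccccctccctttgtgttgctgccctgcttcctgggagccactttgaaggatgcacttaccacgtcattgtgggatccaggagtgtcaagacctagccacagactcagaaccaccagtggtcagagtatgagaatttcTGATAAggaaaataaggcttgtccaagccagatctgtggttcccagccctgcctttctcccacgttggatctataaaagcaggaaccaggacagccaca
Mcpt4, chr14:56062311-56062560, minus strand: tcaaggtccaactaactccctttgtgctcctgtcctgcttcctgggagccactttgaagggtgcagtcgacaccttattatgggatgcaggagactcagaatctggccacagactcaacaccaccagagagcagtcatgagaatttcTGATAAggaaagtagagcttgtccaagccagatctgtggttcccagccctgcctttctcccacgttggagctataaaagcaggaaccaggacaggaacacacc
Cma1, chr14:55944676-55944925, minus strand: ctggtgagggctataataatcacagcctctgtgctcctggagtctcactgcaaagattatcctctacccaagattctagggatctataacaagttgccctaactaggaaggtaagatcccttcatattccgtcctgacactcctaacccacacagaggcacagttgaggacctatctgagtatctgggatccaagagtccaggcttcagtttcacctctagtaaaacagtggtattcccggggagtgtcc
The Cpa3 stretch held AGATAA, starting at position -46 from the start site, and CAGCTG at -59. The Srgn stretch held CAGCTG at -59 and neither GATA-type motif. Mcpt1 and Mcpt4 each held TGATAA, at -99 and -103, and no CAGCTG. The Cma1 stretch held none of these 3 motifs. Nor did those of Hdc and Mcpt8, but their RefSeq starts lay 621 and 76 bases from the deposited ones, so these stretches do not adjoin the deposited gene end and are not shown. Over all 32851 RefSeq stretches of the same length, 9.99% held AGATAA, 7.94% held TGATAA, and 13.0% held CAGCTG, with stretches of the same gene counted separately. The motifs do not overlap one another in the stretches shown. A match describes the letters alone, and GATA-type motifs occurred before an abundant gene and before genes without a read.

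Cpa3 encodes the granule carboxypeptidase, which trims residues from the C-terminal end of peptides and toxins. Cpa3 (ENSMUSG00000001865; GRCm38 chromosome 3, 20215620 to 20242181, minus strand, protein-coding) had 11556 and 12049 reads with DMSO, against 13269 and 13583 with daidzein. On the FPKM scale, which scales reads to the exonic length of the gene and the library total, these levels were 469, 464, 509 and 483. By FPKM it ranked between place 89 and place 100 among all genes of the table, so it was among the most abundant transcripts of these cells in every library. A microRNA gene inside it on the same strand, Mir7007, was counted separately, with 36 to 60 reads per library.

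Srgn encodes serglycin, the core protein to which the granule's sugar chains are attached, and is also made by many other blood cells. Srgn (ENSMUSG00000020077; GRCm38 chromosome 10, 62493833 to 62527451, minus strand, protein-coding) had 2057 and 2210 reads with DMSO and 2295 and 2375 with daidzein. Its levels were 57.7, 58.8, 60.8 and 58.3 FPKM. Its rank by FPKM was between 1106 and 1159. The FPKM of Cpa3 was 8.13 and 7.89 times that of Srgn with DMSO, and 8.37 and 8.28 times with daidzein. The ratio was thus nearly the same in all 4 libraries, a little higher with daidzein, and an exact permutation test over libraries gave a two-sided p of 0.333, which is the smallest that 2 against 2 libraries can give.

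**Figure D1:**
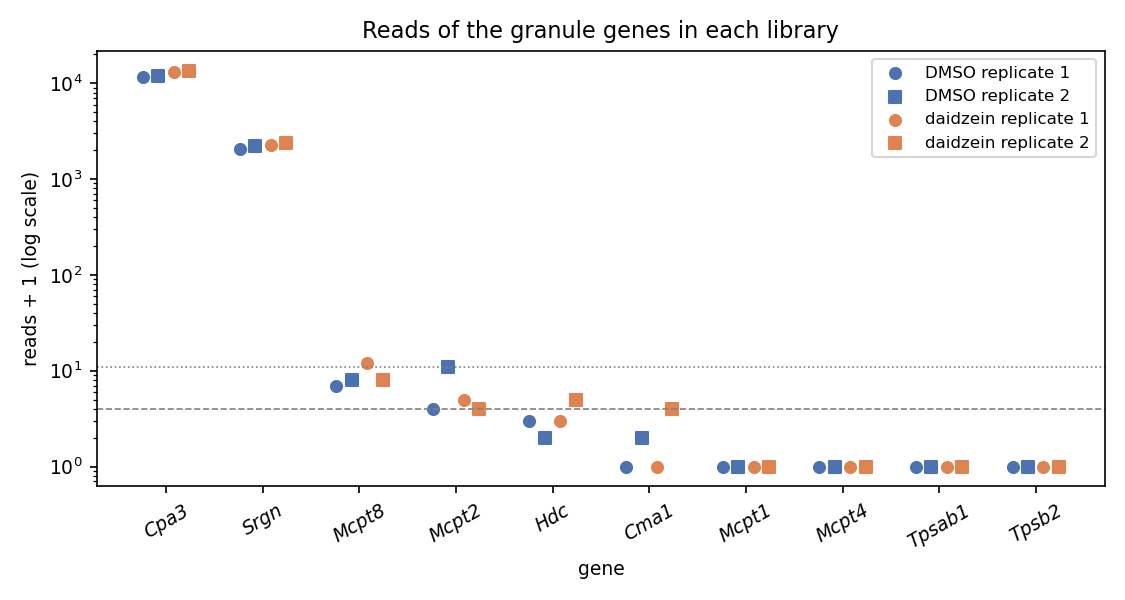
Reads plus 1 (log axis) of each of the 10 granule genes, with 1 point per library; circles are replicate 1 and squares replicate 2. The dashed line is the floor of 3 reads and the dotted line the limit of 10 reads. Cpa3 and Srgn stand above 2000 reads in all 4 libraries, and every other gene lies at or below 11 reads.

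The chymase genes were nearly silent. Mcpt1 (ENSMUSG00000022227; chromosome 14, 56017971 to 56020384, plus strand), a chymase of mucosal mast cells, had 0 reads in every library. Mcpt4 (ENSMUSG00000061068; chromosome 14, 56059629 to 56062313, minus strand), the main chymase of connective tissue mast cells, also had 0 reads in every library. For genes without a read a bound of 3 reads over the 4 libraries together was set. It is 0.0434 CPM (reads scaled to the library total), or 0.0428 FPKM for Mcpt1 and 0.0392 FPKM for Mcpt4. By that bound the pooled FPKM of Cpa3 was at least 11242-fold higher than that of Mcpt1 and at least 12284-fold higher than that of Mcpt4. The upper ends of the two-sided 95% Poisson intervals were higher than this bound, at 0.0527 and 0.0482 FPKM, and would give lower folds. Cma1 (ENSMUSG00000022225; chromosome 14, 55941451 to 55944675, minus strand), whose protein is known to be stored together with Cpa3, had 0 and 1 reads with DMSO and 0 and 3 with daidzein. Its pooled level was 0.0531 FPKM, and its 95% Poisson interval, 0.0145 to 0.136, covers only counting error, as do the other intervals of single genes.

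Mcpt2 and Mcpt8 had a few reads in every library. Mcpt2 (ENSMUSG00000022226; chromosome 14, 56042041 to 56044642, plus strand), the other chymase-like gene of mucosal mast cells, had 3 and 10 reads with DMSO and 4 and 3 with daidzein. DMSO replicate 2 was the high library and the groups overlapped. Mcpt8 (ENSMUSG00000022157; chromosome 14, 56082166 to 56085273, minus strand), the basophil protease, had 6 and 7 reads with DMSO and 11 and 7 with daidzein, so the groups met at 7 reads. Pooled over the libraries, Mcpt8 stood at 0.450 FPKM (95% Poisson interval 0.305 to 0.638) and Mcpt2 at 0.273 (0.167 to 0.421). The FPKM of Cpa3 was 1071 times that of Mcpt8 and 1764 times that of Mcpt2. Prss34, another basophil protease, had 0 reads in every library, and the basophil surface gene Cd200r3 had 22 to 39.

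The tryptase genes had no read at all. Tpsab1 (ENSMUSG00000024173; chromosome 17, 25343245 to 25345562, minus strand) and Tpsb2 (ENSMUSG00000033825; chromosome 17, 25366305 to 25369098, plus strand) encode the tryptases also called mMCP-7 and mMCP-6. Both had 0 reads in all 4 libraries. Tpsab1 is known to carry a splice-site change in the C57BL/6 strain that keeps its protein from being made, and Tpsb2 is intact in that strain. The bound of 3 reads over the 4 libraries is 0.0207 FPKM for Tpsab1 and 0.0272 FPKM for Tpsb2, so Cpa3 was at least 23216-fold and at least 17672-fold higher.

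Reads that match several genes can be lost or split in counting, so the sequences of these genes were compared with all other annotated mouse transcripts. Windows of 50 bases from the longest protein-coding transcript of each gene were used, and the labels do not state the read length. Exonic bases outside that transcript were not compared. For Hdc the transcript has 2392 bases, against an exonic length of 6389. Every such window was unique to its gene in Cpa3, Srgn, Hdc, Mcpt1, Mcpt2, Mcpt8, Tpsab1 and Tpsb2. In Mcpt4 the unique share was 94.5%, and the remaining windows were shared with Cma2 and Mcpt9, which had 0 reads in every library. In Cma1 the unique share was 94.6%, and the remaining windows were shared with the pseudogene Gm48934. Gm48934 had 3, 4, 11 and 1 reads. The closest pair of members was Mcpt1 and Mcpt4, with 82.5% identical bases over 998 aligned positions of their transcripts, while Tpsab1 and Tpsb2 had 78.2% over 413. At this window length the 0 counts of Mcpt1, Tpsab1 and Tpsb2 therefore belonged to genes whose longest protein-coding transcript had no shared window.

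The chymase genes lie side by side on chromosome 14 with cathepsin G and the granzymes, and a few of these neighbours were transcribed. Between Cma1 and Gzmb, from 55941451 to 56262260, there are 15 protein-coding genes, of which 2 were detected and 9 had 0 reads in every library. The 2 detected genes were Gzmb and Ctsg, neither of them a member of the set. Gzmb, a granzyme of cytotoxic lymphocytes that mast cells can also make, had 227 and 196 reads with DMSO and 182 and 208 with daidzein. Ctsg, cathepsin G of neutrophils and some mast cells, had 93 and 81 reads with DMSO and 63 and 98 with daidzein. Both stood above every chymase gene of the set in every library. On chromosome 17, all 6 protein-coding genes from Prss34 to Tpsg1 had 0 reads in every library.

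**Figure D2:**
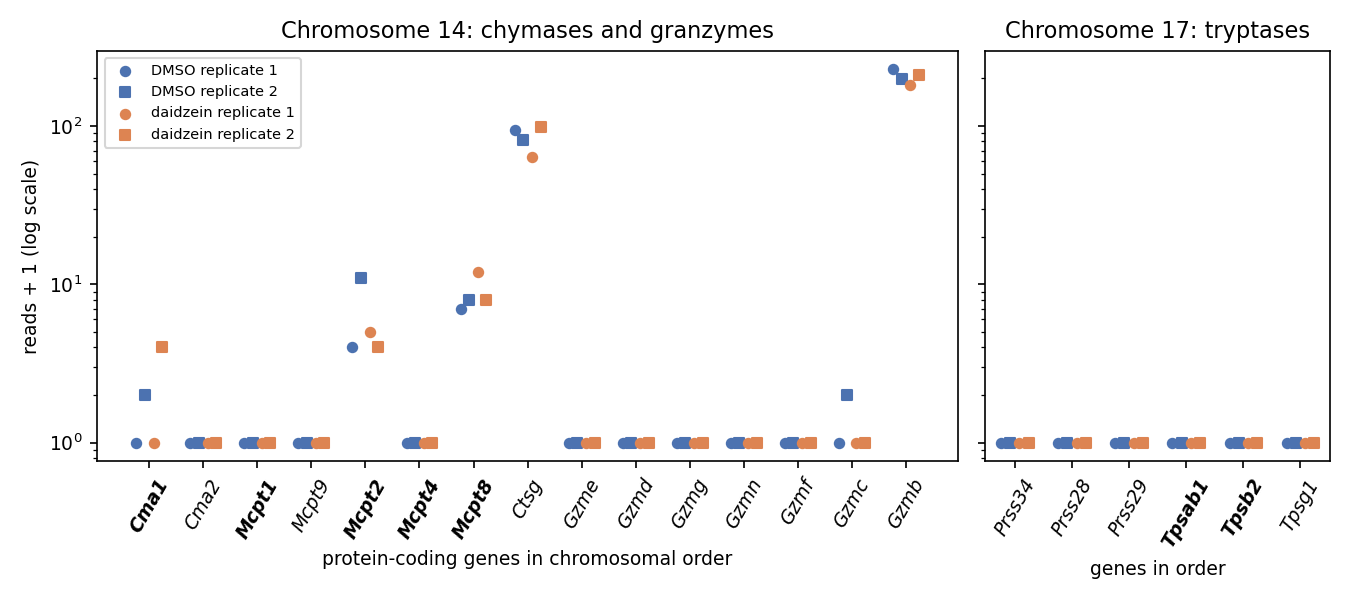
Reads plus 1 (log axis) of the protein-coding genes along the chymase locus (left, 15 genes) and the tryptase locus (right, 6 genes) in chromosomal order, with 1 point per library and members in bold. In the chymase locus Gzmb and Ctsg stand above 60 reads in every library and no chymase passes 11, and the tryptase locus has no read.

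Hdc, the histamine-forming enzyme, was close to 0. Hdc (ENSMUSG00000027360; GRCm38 chromosome 2, 126593667 to 126619299, minus strand, protein-coding) had 2 and 1 reads with DMSO and 2 and 4 with daidzein. Its pooled level was 0.0204 FPKM (95% Poisson interval 0.00933 to 0.0387), and the FPKM of Cpa3 was 23612 times as high. The exonic length used for Hdc was 6389 bases, against 2392 in its longest protein-coding transcript. For Cpa3 these lengths were 1517 and 1449 bases, so this fold depends on the length used. Daidzein replicate 2 had the most Hdc reads, and the groups overlapped at 2 reads. By level the 10 genes ran from Cpa3 over Srgn, Mcpt8, Mcpt2, Cma1 and Hdc to the 4 genes without a read. Cpa3, Srgn and the rest were separate in every library. The intervals of Mcpt8 and Mcpt2 overlapped, as did those of Cma1 and Hdc, so the order inside these pairs was not detectable at this depth. Neither Hdc nor Cma1 could be ranked above the genes without a read by these intervals, since both overlapped theirs. Hdc had at least 1 read in every library, while Cma1 had 0 in DMSO replicate 1 and daidzein replicate 1. The counting intervals of Mcpt2 and Cma1 did not overlap, but their libraries did at 0.15 FPKM.

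Some genes of serotonin, the other amine of rodent mast cells, were well above Hdc and others were also close to 0. Tph1, which encodes the rate-limiting enzyme of serotonin synthesis outside the brain, had 3997 and 4043 reads with DMSO and 4056 and 3791 with daidzein, at 37.4 ± 2.94 FPKM (SD over 4 libraries). Slc18a2, the vesicular transporter that loads serotonin and histamine into granules, stood at 19.5 ± 0.924 FPKM over the 4 libraries. Maoa, which breaks serotonin down, stood at 21.4 ± 0.390 FPKM. Ddc, which catalyses the second step to serotonin, had only 1 to 4 reads per library. Tph2, the synthesis enzyme of the brain, had at most 1 read per library, Maob at most 2, and the other vesicular transporter Slc18a1 had 1 to 15. Hnmt and Aoc1, the histamine-degrading enzymes, had 0 reads in every library, as had the receptor genes Hrh1, Hrh3 and Hrh4, while Hrh2 had 17 to 24. Of the 16 listed genes of amine synthesis, storage, breakdown and response, 4 were detected and 9 were at the floor.

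The enzymes that build sugar chains on serglycin were mostly present. Of 22 listed genes, Srgn among them, 15 were detected and 7 were at the floor. Ndst2, the sulfotransferase that mast cells need to make heparin, stood at 51.6 ± 2.45 FPKM and Hs6st1, a heparan sulfate 6-O-sulfotransferase, at 68.9 ± 1.51 FPKM (SD over 4 libraries each). Chst12, a chondroitin 4-O-sulfotransferase, stood at 30.3 ± 1.12 FPKM. Ext1, a subunit of the enzyme that extends heparan sulfate chains, had 1 read in DMSO replicate 1 and 0 elsewhere, while its partner Ext2 stood at 13.1 ± 0.347 FPKM. Chst15, which makes the highly sulfated chondroitin sulfate E of mucosal-type mast cells, had 1 read in DMSO replicate 1 and 0 elsewhere. Srgn was the second highest of the list in FPKM.

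**Figure D3:**
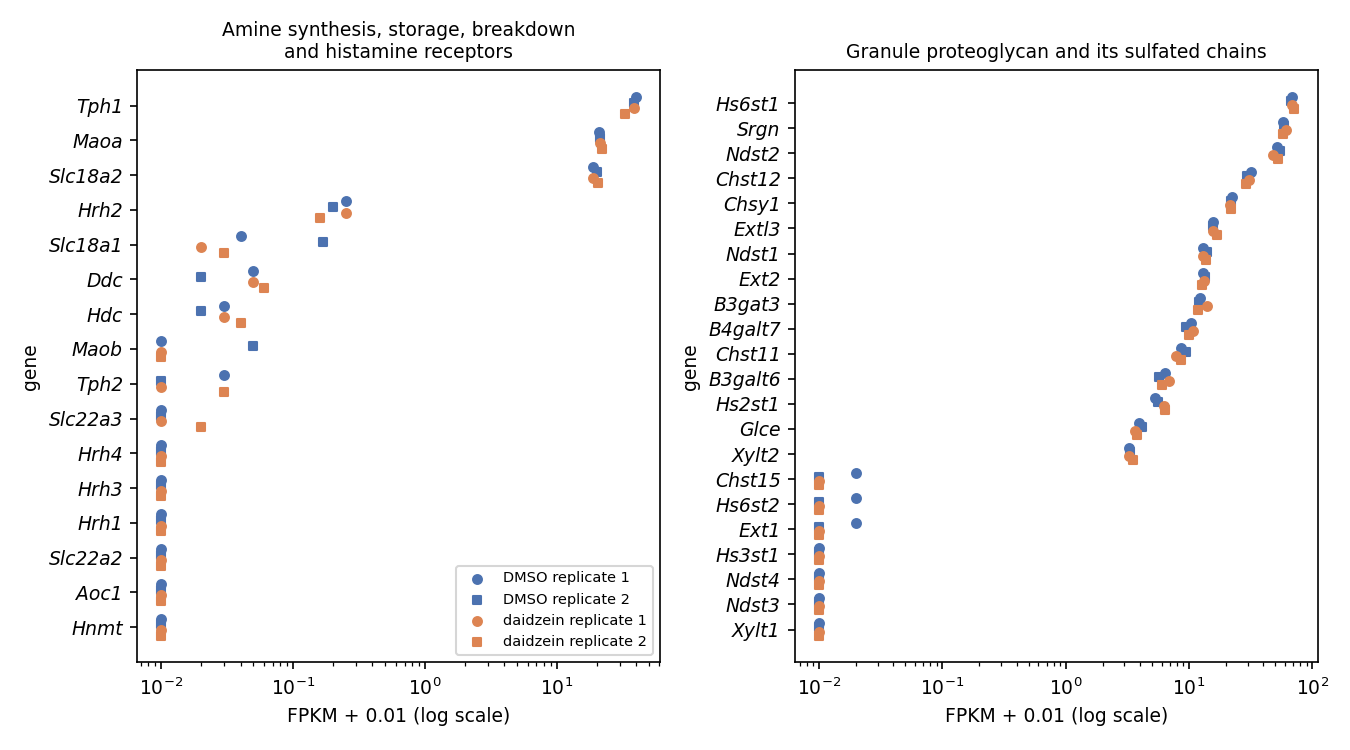
FPKM plus 0.01 (log axis) of 16 genes of amine synthesis, storage, breakdown and response (left) and 22 genes of serglycin and its sugar chains (right), with 1 point per library. Hdc lies with the near-absent genes on the left, below Tph1, Maoa and Slc18a2, and Srgn lies with Hs6st1 and Ndst2 at the top on the right.

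Most listed genes that mature, inhibit or move granule proteases were detected, at widely differing levels. Ctsc, the peptidase that activates granule serine proteases, stood at 71.5 ± 1.55 FPKM, and Ctse, which has been linked to the processing of the Cpa3 precursor, at 42.8 ± 1.02 FPKM (SD over 4 libraries each). Ctsz, a lysosomal carboxypeptidase, stood at 449.9 ± 19.4 FPKM, close to Cpa3 at 481 ± 20.0. Cst7, a cathepsin inhibitor, stood at 219.6 ± 2.58 and Serpinb1a, an inhibitor of chymase-like proteases, at 128 ± 3.59. Of 16 such genes 14 were detected, the lowest of them Ctss, a lysosomal protease, at 0.752 ± 0.160 FPKM, while Serpinb6b had at most 2 reads per library. Among 21 genes of granule trafficking and release, 19 were detected, among them the granule membrane proteins Cd63, at 92.4 ± 2.70 FPKM, and Lamp1, at 76.5 ± 2.68, and Vamp8, a vesicle fusion protein, at 72.6 ± 1.03 FPKM. Syt9, a calcium sensor of vesicle fusion, was detected at only 0.490 ± 0.0845 FPKM, and Mlph, an adaptor of granule transport, had 0 reads. Among 16 regulators of mast cell genes 14 were detected. Gata2, which drives mast cell and basophil fate, stood at 244 ± 8.47 FPKM, and Mitf, which is known to activate several granule protease genes and Hdc, at 7.02 ± 0.497. Ikzf1 stood at 39.6 ± 2.31 FPKM and Stat5b at 34.0 ± 0.644. Cebpa and Irf8, regulators of other myeloid lineages, had 0 reads, but Spi1, which also acts in other myeloid lineages, stood at 35.6 ± 2.42 FPKM.

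Between the groups, no granule gene passed the test. Only Cpa3 and Srgn had enough reads to be tested, and 8 of the 10 members were not tested. Genes were tested by edgeR with a quasi-likelihood fit and Benjamini-Hochberg adjustment over 11700 genes, of which 0.0171% passed an adjusted p of 0.05, none of them higher with daidzein. The mean of Cpa3 was 708.5 ± 9.50 CPM in DMSO libraries and 753 ± 33.3 CPM in daidzein libraries (SD, n = 2 each, scaled by TMM), which is 1.06-fold (95% interval 0.985 to 1.15). Its unadjusted p was 0.111 and its adjusted p 1.00 by edgeR. Both daidzein libraries lay above both DMSO libraries for Cpa3, as for 14.6% of all genes tested. The mean of Srgn was 128 ± 0.996 CPM against 130.9 ± 4.79 under daidzein (SD, n = 2 each), a fold of 1.02 (0.935 to 1.12), with an unadjusted p of 0.608 and an adjusted p of 1.00 by edgeR, and its groups overlapped. At an unadjusted p of 0.05 neither gene passed by edgeR, DESeq2 or limma in fits without a replicate block, where 2.91% of all genes did by edgeR. In RNA from whole cultures, fewer cells that make a transcript and less of it per cell cannot be told apart.

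**Figure D4:**
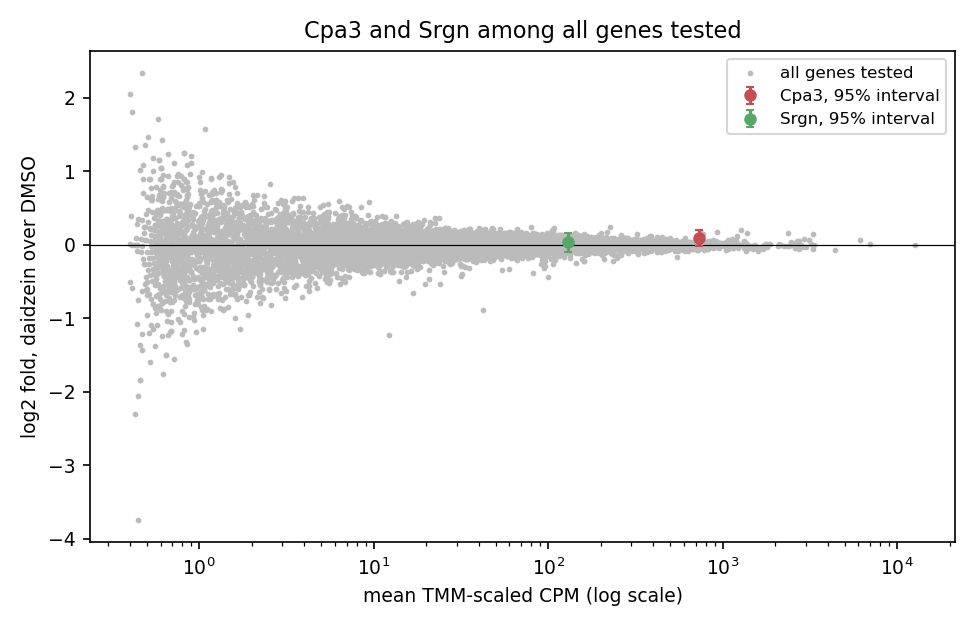
Log2 fold of daidzein over DMSO (vertical axis) against the mean TMM-scaled CPM (horizontal log axis) for the 11700 genes tested, with Cpa3 and Srgn in colour and their 95% intervals as bars. Both lie near 0 among genes of like abundance, and both bars cross 0.

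The low genes were below the filter, so their reads were compared. The pooled ratio of daidzein to DMSO, per depth, was 0.503 for Mcpt2 (95% exact binomial interval 0.170 to 1.35), and it was 1.06 without DMSO replicate 2, so it rests on that library. For Mcpt8 the ratio was 1.29 (0.599 to 2.87), and it was 0.969 without daidzein replicate 1. For Hdc it was 1.87 (0.399 to 11.5), from 3 reads against 6, and 2.88 without DMSO replicate 1. For Cma1 it was 2.80 (0.225 to 147), from 1 read against 3, and it was 0 without daidzein replicate 2, 1.44 without DMSO replicate 1 and 5.40 without daidzein replicate 1. Without DMSO replicate 2 no DMSO read was left and no ratio could be formed. All 4 intervals include 1. Fitted with no filter, edgeR gave an unadjusted p of 0.312 for Mcpt2, 0.592 for Mcpt8, 0.571 for Hdc and 0.576 for Cma1, with adjusted p from 0.976 to 0.990, and a difference of these genes was not detectable at this depth.

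The summed level of the 8 proteases followed Cpa3. It was 713 and 705 CPM with DMSO and 773 and 733 CPM with daidzein, and an exact permutation test over libraries gave a two-sided p of 0.333, the smallest possible here. Cpa3 made up 99.9% of the protease reads in each library, with 95% exact Clopper-Pearson intervals between 99.8% and 99.96%. The other 7 proteases together had 9 and 18 reads with DMSO and 15 and 13 with daidzein.

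The related lists showed no called change either, beside 0.0171% of all genes tested. Of the genes tested, 0 of 4 for amines, 0 of 15 for the proteoglycan and its chains, 0 of 14 for processing and inhibition, 0 of 19 for trafficking and 0 of 14 for regulators rose or fell by edgeR. At an unadjusted p under 0.05 there were 0, 1, 1, 2 and 2 such genes, in that order, beside 2.91% of all genes tested. The 2 regulators were Cebpb, a factor of myeloid and stress responses, with a fold of 0.693 (95% interval 0.583 to 0.824) and an unadjusted p of 0.000289, and Gata1, a factor of red cell and mast cell fate, with a fold of 0.709 (0.522 to 0.964) and an unadjusted p of 0.0302. Neither passed, with adjusted p of 0.628 and 1.00 by edgeR. Hs2st1, of the sugar chain list, had a fold of 1.16 and an unadjusted p of 0.0145 by edgeR. For Spint1, of processing and inhibition, these values were 0.866 and 0.0105. For the trafficking genes they were 0.895 and 0.0285 (Stx4a), and 0.816 and 0.0286 (Vamp2). None of them passed after adjustment. The median log2 differences were -0.07, 0.03, -0.02, -0.04 and -0.04, beside a median of -0.0027 over all genes tested. Tph1 had a fold of 0.913 (95% interval 0.829 to 1.00), Slc18a2 of 1.00 (0.907 to 1.10) and Ndst2 of 0.952 (0.875 to 1.03), and none passed.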

How the data were processed

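RNA sequencing of 4 mouse libraries was used, grouped by their titles. The authors deposited whole-number read counts per gene, not normalized, as the values show, and FPKM values. The deposited FPKM equalled the count scaled to gene length and to the library's total, within 0.01, for 100% of 65326 values. Tools listed without role or order in the submitters' processing notes are DESeq2, HTSeq 0.6.1 and HISAT2 2.0.1, and the build listed is mm9. The deposited coordinates of all 10 members are those of GENCODE M21 on GRCm38, so that build is given. Strand handling of the counting is not given in the sources used here. No annotated gene overlapped a member on the opposite strand. For a symbol on several rows, the row with most reads was used.

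Tests on counts used R 4.3.3 and edgeR 4.0.16 (quasi-likelihood test, TMM, default filterByExpr filter, adjusted p under 0.05, no fold threshold), checked on simulated data. Levels of different genes were compared in FPKM, and floors were 3 counts. Alternatives were DESeq2 1.42.0, limma 3.58.1 on log2(FPKM + 1), no TMM, no filter, a filter of 5 CPM, the replicate number as a block, each library left out, and other detection limits. Transcripts were aligned with blastn 2.17.0. All 6 pairs of libraries differed by more than sampling noise. Members and lists were chosen with earlier results of these data known. All members were named, and of each list 4 or fewer of the tested genes with the highest FPKM, with markers and locus neighbours. Some genes among the highest 4 of a list were left out, such as Cst3 and Cd69. Other names, such as Ctsc, Ctse, Ctss, Serpinb6b, Spint1, Syt9, Vamp2, Mlph, Mitf, Cebpa, Cebpb, Gata1, Irf8, Tph2, Maob, Slc18a1, Ddc, Hnmt, Aoc1, Ext1, Ext2, Hs2st1, Chst15, Hrh1, Hrh3 and Hrh4, were chosen after their values were seen.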

Additional observations from a re-analysis of the deposited data

How the results depend on the processing

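The 2 genes called over the whole table became 1 by DESeq2, 11 with no low-count filter, 1 under a 5 CPM filter, 0 by limma on FPKM (461 at an unadjusted p under 0.05) and 27 with a replicate block. It was 4 to 17 when 1 library was dropped, where a lone library is assumed to vary like the others. The count of members called was 0 in every one of these settings. Cpa3 and Srgn had adjusted p between 0.660 and 1.00 throughout. With the block Cpa3 had an unadjusted p of 0.0110 and an adjusted p of 0.660 by edgeR. No label gives same-numbered libraries a shared source, so they were not treated as pairs. Their deviations had a correlation of 0.09 over genes. Over genes with at least 40 reads in a pair of libraries, chi-square per gene was 2.23 between the libraries numbered 2 and 3.51 between those numbered 1. It was 4.17 within DMSO and 4.38 within daidzein. By this measure same-numbered libraries were the most alike of the 6 pairs, and a shared source was not tested. The log2 difference of Cpa3, 0.09, was 0.04 to 0.14 when 1 library was dropped. That of Srgn, 0.03, became -0.0053 without daidzein replicate 1 and 0.073 without daidzein replicate 2, and never passed.

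The count of detected members, 2, became 4 at a limit of 0.1 FPKM, which adds Mcpt2 and Mcpt8, and was 2 or 3 otherwise. The log2 difference of summed protease CPM, 0.09, became -0.029 without Cpa3, which leaves only 55 reads in all, and was 0.09 in the block. Dropping 1 library gave 0.05 to 0.12. Depth limits every statement on the 8 low members to counts of at most 11 reads per library. For the other changes the cause was not tested.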

Other observations

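Granule genes of other blood lineages were measured beside the mast cell set. Of 16 neutrophil and eosinophil granule genes, 1 was detected, Ctsg, and 12 were at the floor of at most 3 reads in every library. Elane, the neutrophil elastase, and Prg2, the eosinophil major basic protein, had 0 reads in every library, and Mpo, myeloperoxidase, had 1 read in each. The summed level of that list was 5.49 to 6.72 CPM with DMSO and 3.90 to 5.45 CPM with daidzein, most of it Ctsg. Among other members of the carboxypeptidase A and B family, Cpb1 had 10 to 17 reads per library, while Cpa1, Cpa5 and Cpb2 had 0 reads and Cpa4 and Cpa6 at most 2 reads per library, beside at least 11556 for Cpa3.

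Inside the chymase locus, the processed pseudogene Gm5801 had 55, 58, 55 and 58 reads, more than any chymase gene there.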
